A study of Mus musculus with 4 samples.

Results

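The genes described here are 35 interferon-stimulated genes, which cells switch on when they receive type I interferon. They were chosen by symbol from a list of known targets, with no measured value in the rule, and each of the 35 symbols matched exactly 1 of the 55385 gene rows of the study. CITE-seq, which reads messenger RNA and antibody-bound barcodes from the same single cell, was applied to the spleen of steady-state C57BL6 mice of WT genotype. Dendritic cells of 2 mice were enriched and stained with barcoded antibodies, then sorted into type 1 conventional dendritic cells (cDC1), type 2 conventional dendritic cells (cDC2) and random live cells and mixed, so the sort set how many cells of each class were seen. The labels do not say which animal gave which of the 2 libraries, nor how old the animals were. Every group below carries the same genotype and treatment. The p-values measure only how far differences between classes varied over the 2 libraries, a spread that may be technical. A shift shared by all classes of a library was fitted apart.

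Type I interferons bind a receptor of the subunits IFNAR1 and IFNAR2, whose kinases JAK1 and TYK2 activate transcription factors such as STAT2. With IRF9 it forms part of a complex that binds interferon-stimulated response elements in the promoters of target genes. The products block viral entry, RNA and protein synthesis, sense foreign nucleic acid, or damp the response again. In the spleen, dendritic cells hold a low level of such expression without infection, and plasmacytoid dendritic cells (pDC) are specialised producers of type I interferon.

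The promoters below show this element where it occurred in members whose levels separate the cell classes in the results. Other members that separate the classes, Oasl2, Ddx58 and Slfn1 among them, had no match. Of the 35 members, 26 had a RefSeq promoter entry (build GRCm38.p6, the 250 bases before the gene start were searched). The response element was searched as GAAA, then NN for any 2 bases, then GAAA again, and the gamma-activated element as TTCNNNGAA, each on both strands. The first occurred in 11 of the 26 members (42.3%) and in 936 of all 27025 promoters (3.46%), the second in 4 members (15.4%) and in 2197 promoters (8.13%). Each run of 90 bases is written 5′ to 3′ on the strand of its gene, and capitals mark the letters of that response element or its reverse complement. In Isg15, Oas1a and Bst2 the capitals hold matches that overlap each other. The Bst2 promoter also holds a TTCNNNGAA match that begins 136 bases before the start and overlaps the first response element, which begins 130 bases before it.
Isg15 (chr4:156200841-156200930, minus strand): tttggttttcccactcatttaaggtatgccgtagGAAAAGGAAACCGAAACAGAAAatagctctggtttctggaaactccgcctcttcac
Rsad2 (chr12:26456523-26456612, minus strand): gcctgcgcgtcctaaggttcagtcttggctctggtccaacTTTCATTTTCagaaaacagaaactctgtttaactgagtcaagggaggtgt
Ifit1 (chr19:34640754-34640843, plus strand): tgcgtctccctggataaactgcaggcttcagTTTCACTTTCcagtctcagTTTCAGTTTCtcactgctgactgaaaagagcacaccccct
Ifit3 (chr19:34583350-34583439, plus strand): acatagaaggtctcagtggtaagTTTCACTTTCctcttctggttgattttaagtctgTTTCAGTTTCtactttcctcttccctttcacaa
Oas1a (chr5:120907526-120907615, minus strand): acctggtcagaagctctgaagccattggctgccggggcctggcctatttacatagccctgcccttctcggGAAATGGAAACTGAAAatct
Bst2 (chr8:71537550-71537639, minus strand): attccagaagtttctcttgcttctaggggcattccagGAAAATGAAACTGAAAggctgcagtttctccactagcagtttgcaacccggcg

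Cells were called cDC1 from surface protein alone, with at least 3 antibody counts of XCR1 and at most 2 of CD172a, and split by the RNA of Ccr7, the receptor that guides maturing cells toward T cell areas, and Fscn1, an actin bundler of mature cells. Counts are unique molecular identifiers (UMIs), each standing for 1 captured molecule. The Ccr7-0 class had no Ccr7 UMI (4871 cells in library 1 and 7392 in library 2). The intermediate class had at least 2 Ccr7 and at most 1 Fscn1 (179 and 236), and the late class at least 5 Ccr7 and 2 Fscn1 (103 and 125). The other classes were cDC2 without Ccr7 (1327 and 1446), cDC2 of the intermediate (326 and 296) and late step (62 and 62), pDC (76 and 71), T cells (776 and 646), B cells (131 and 147) and NK cells (308 and 446). Erythroid cells (104 and 91) served as a background class. The names order cells by marker level and say nothing of time.

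The 2 libraries held 99617992 and 129565040 RNA UMIs, with 12166 and 15976 cells kept and 61 barcode sequences found in both. Median RNA UMIs per cell and library ran from 6199 to 9202 in the 3 cDC1 classes, from 3509 to 4014 in those of cDC2, and from 1980 to 3040 in lymphocytes. The 9 cDC1 markers summed to 5313 and 5726 CPM (UMIs per 1000000 RNA UMIs of the class) in Ccr7-0 cDC1, to 3512 and 3629 in the intermediate and to 2009 and 2822 in the late class, against 1270.4 and 1333 in Ccr7-0 cDC2. They also reached 4606 and 4309 CPM in pDC, above the intermediate and late cDC1, and 1850 and 1744 in NK cells, so this sum does not by itself tell those classes from cDC1. The 8 pDC markers summed to 11072 and 11493 CPM in pDC and to 52.8 and 52.4 in Ccr7-0 cDC1. The pDC were cells outside the cDC1 gate with at least 3 Siglech UMIs and at least 2 of Ccr9, Cox6a2, Klk1, Pacsin1 and Smim5 detected. Those genes are among the 8 markers, so the high sum in pDC follows from the rule and is no separate support. Among the members, Ly6a stood apart between libraries, as given with the surface proteins below.

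Along the cDC1 steps the list did not move as a block. Rsad2, Oasl1, Herc6, Usp18, Mx1, Parp14 and Isg15 were higher in late than in Ccr7-0 cDC1, while Trim30a, Irf7, Irf9, Slfn5, Ifi27l2a, Isg20 and Ly6a were lower. Of the 35 members 33 passed the filter on low counts. From Ccr7-0 to intermediate cDC1, 16 members rose and 2 fell, where 12.6% of all 10353 genes tested rose and 10.9% fell (23.5% in all), and the median log2 difference of the members was 0.74 against -0.07 over all genes. From intermediate to late, 7 rose and 6 fell (15.2% and 16.4% of all genes, 31.6% in all), with medians of -0.32 and -0.11. From Ccr7-0 to late, 11 rose and 7 fell (22% and 26.9% of all genes, 48.9% in all), with medians of 0.22 and -0.21. These comparisons share classes, so their counts are not independent. Markers of phagocytes moved with maturation. The 7 monocyte markers summed to 168 and 188 CPM in Ccr7-0, 185 and 222 in intermediate and 506 and 394 in late cDC1, with Adgre4 at 0 in the last 2 classes. The 8 markers of red pulp macrophages summed to 38.5 and 44.99, 108 and 135, and 214 and 198 CPM, with C1qc and Mertk at 0 in late cDC1. Their part in the members' changes was not tested. All tests are edgeR quasi-likelihood tests of the UMIs summed per class and library, with adjustment over all genes.

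The count for the intermediate step rests on few cells. Without the intermediate class of library 1, 9 members passed in place of 18, and without that of library 2, 11 did. From intermediate to late, 6 passed in place of 13 without the late class of library 1 and 8 without that of library 2. From Ccr7-0 to late, 11 passed in place of 18 without the late class of library 1. With stricter antibody gates the counts of the 3 comparisons were 10, 6 and 8. The members called under every setting tried were Isg15, Rsad2, Oasl1, Zbp1 and Slfn2 in the first comparison, Mx1, Usp18, Slfn2 and Herc6 in the second, and Isg15, Rsad2, Mx1, Oasl1, Usp18, Trim30a, Herc6 and Parp14 in the third.

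**Figure D1:**
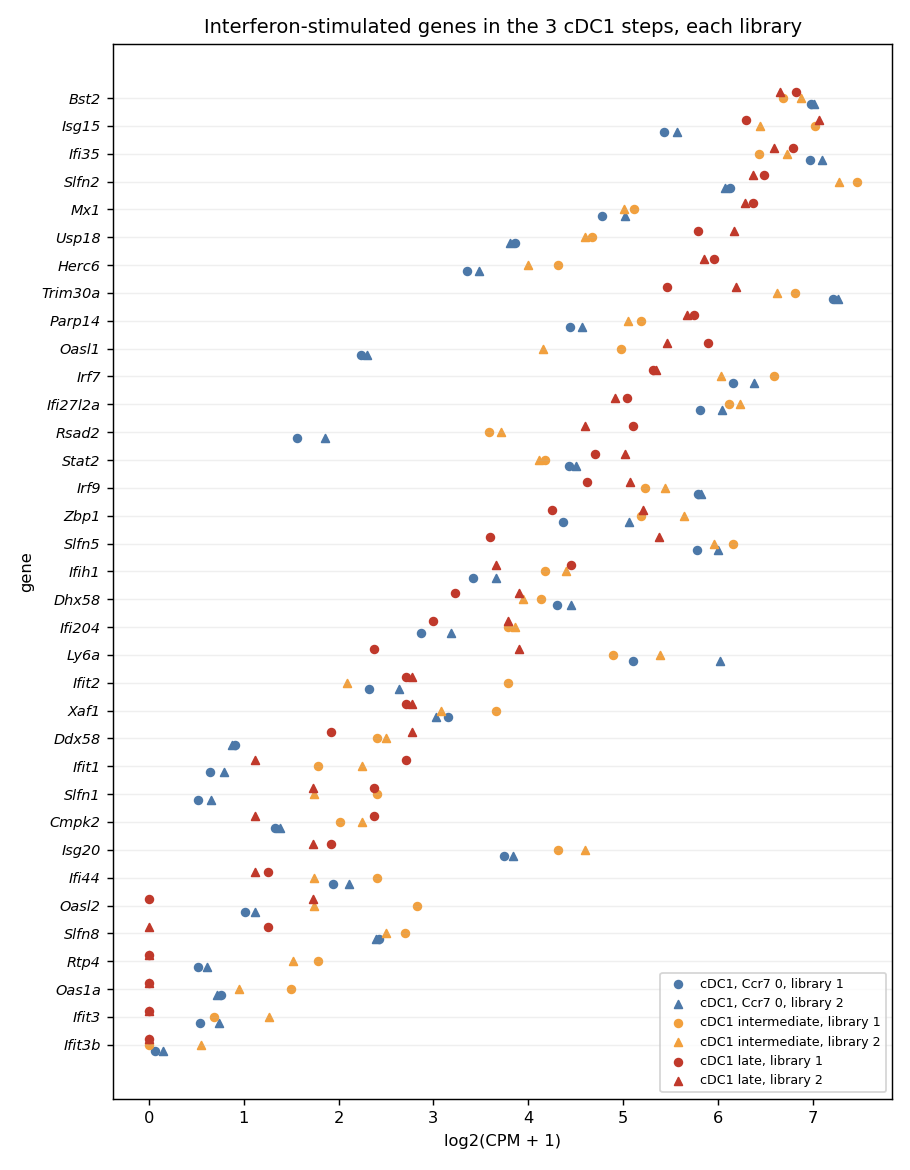
Level of each of the 35 members (rows, ordered by their level in late cDC1) in the 3 cDC1 classes (colours) and 2 libraries (circles and triangles), as log2(CPM + 1) on the horizontal axis. The late points of Rsad2, Oasl1, Herc6, Usp18 and Mx1 lie to the right of the Ccr7-0 points in both libraries, and those of Trim30a, Irf7 and Isg20 to the left.

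Rsad2 encodes viperin, an enzyme that makes a chain-terminating nucleotide against viral RNA synthesis. It was at 1.96 and 2.64 CPM in Ccr7-0 cDC1, 11.01 and 12.1 in the intermediate and 33.4 and 23.3 in the late class of libraries 1 and 2. Both libraries gave the same order, and no 2 classes overlapped. Rsad2 rose from Ccr7-0 to intermediate (log2 2.34, SE 0.46, adjusted p = 3.21e-04) and from Ccr7-0 to late (log2 3.71, SE 0.51, adjusted p = 5.99e-07). The step from intermediate to late passed (log2 1.37, SE 0.51, adjusted p = 0.0423), but not when any 1 of the 4 class sums of that comparison was left out (log2 1.11 to 1.59), and it held in 4 of 10 other settings.

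Oasl1, of the oligoadenylate synthetase-like family, which restrains the translation of Irf7, followed the same order. Its level was 3.70 and 3.94 CPM in Ccr7-0, 30.6 and 16.8 in intermediate and 58.4 and 43.1 in late cDC1. The classes did not overlap. It rose at the first step (log2 2.61, SE 0.28, adjusted p = 3.62e-08) and the second (log2 1.24, SE 0.32, adjusted p = 0.00333), the latter not without the intermediate class of library 2 or the late class of library 1 (log2 0.82 to 1.67 over the left-out sums). From Ccr7-0 to late the difference was log2 3.85, SE 0.32, adjusted p = 4.26e-11. Together with Mx1, Herc6 and Parp14, it was a member whose mean level was highest in late cDC1 among the 10 classes. For Oasl1 the 2 libraries of late cDC2 (18.3 and 48.3 CPM) overlapped late cDC1. Parp14 was at 56.0 CPM in NK cells and 53.6 in intermediate cDC2 of library 1, above late cDC1 of that library.

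Herc6 and Usp18 act on ISG15, the ubiquitin-like modifier: Herc6 is the mouse ligase that attaches it, and Usp18 removes it and also blocks the interferon receptor. Herc6 stood at 9.27 and 10.2 CPM, then 18.96 and 14.9, then 61.2 and 57.1 along the 3 classes. It rose from intermediate to late (log2 1.93, SE 0.25, adjusted p = 6.57e-07) and from Ccr7-0 to late (log2 2.74, SE 0.21, adjusted p = 9.74e-12). Usp18 stood at 13.5 and 13.1 CPM, then 24.5 and 23.3, then 54.3 and 71.05. Its rise from intermediate to late was log2 1.52, SE 0.25, adjusted p = 2.46e-05, and from Ccr7-0 to late log2 2.40, SE 0.22, adjusted p = 3.05e-10. In both genes the late class lay above the other 2 in each library.

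Isg15 itself reached its higher level by the intermediate class. It was at 42.3 and 46.5 CPM in Ccr7-0, 129 and 86.3 in intermediate and 77.9 and 133 in late cDC1. The intermediate and late classes overlapped, and library 1 was higher in the former and library 2 in the latter. Isg15 rose from Ccr7-0 to intermediate (log2 1.30, SE 0.18, adjusted p = 3.40e-06) and to late (log2 1.41, SE 0.23, adjusted p = 7.09e-06), while intermediate to late did not pass (log2 0.12, SE 0.24, adjusted p = 0.757). A few cells held much of it: after thinning to 3000 UMIs, 4 of 166 intermediate cells of library 1, those with at least 5 of the 16 core members described below, accounted for 52.8% of the Isg15 UMIs, and 2 of 215 in library 2 for 20%. In late cDC1 1 such cell in each library held 38.1% and 10.4%.

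Mx1, of a family of antiviral GTPases and read here as RNA alone, changed late. It was at 26.4 and 31.4 CPM in Ccr7-0 and 33.6 and 31.3 in intermediate cDC1, which overlapped, and at 82.1 and 76.9 in late cDC1. The second step passed (log2 1.40, SE 0.20, adjusted p = 4.71e-06), as did Ccr7-0 to late (log2 1.60, SE 0.17, adjusted p = 1.03e-08), and the first did not (log2 0.19, SE 0.16, adjusted p = 0.436). Parp14, a mono-ADP-ribosyltransferase, was at 20.8 and 22.6 CPM, then 35.5 and 32.2, then 52.9 and 50.1. It rose from Ccr7-0 to late (log2 1.38, SE 0.22, adjusted p = 7.86e-06). Stat2, a subunit of the transcription factor that drives the list, went from 20.5 and 21.8 to 17.1 and 16.3 to 25.05 and 31.4 CPM, with log2 0.57, SE 0.24, adjusted p = 0.0463 from Ccr7-0 to late, a call that held in 3 of 10 other settings and was lost without the Ccr7-0 class of library 1 or either late class (log2 0.39 to 0.68).

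Other members were higher in the intermediate class. Slfn2, a schlafen protein that keeps T cells and monocytes quiescent, was at 69.1 and 66.3 CPM in Ccr7-0, 176 and 154 in intermediate and 89.1 and 81.5 in late cDC1. The intermediate class lay above both others in each library. Slfn2 rose at the first step (log2 1.32, SE 0.12, adjusted p = 1.83e-09) and fell at the second (log2 -0.85, SE 0.17, adjusted p = 3.28e-04). Its late level passed as higher than the Ccr7-0 level (log2 0.48, SE 0.17, adjusted p = 0.0209), a call that was lost whichever of the 4 class sums was left out (log2 0.34 to 0.57). Zbp1, a sensor of Z-form nucleic acid that can start necroptosis, was at 19.7 and 32.5 CPM, then 35.5 and 48.99, then 18.1 and 36.1, and rose at the first step (log2 0.74, SE 0.16, adjusted p = 9.34e-04). Its values differed between libraries in every cDC1 class, library 2 being the higher.

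The sensors of viral RNA in the list had few UMIs in cDC1. Ddx58, which encodes RIG-I, was at 0.870 and 0.842 CPM in Ccr7-0, 4.28 and 4.67 in intermediate (17 UMIs in all) and 2.78 and 5.82 in late cDC1 (7 UMIs). It rose from Ccr7-0 to intermediate (log2 2.41, SE 0.45, adjusted p = 1.82e-04), not with stricter antibody gates, and to late (log2 2.50, SE 0.69, adjusted p = 0.00371), not without the late class of library 2 (log2 1.77 to 2.89 over the left-out sums), in thinned cells or with stricter gates. Ifih1, which encodes MDA5, was at 9.68 and 11.7 and 17.1 and 20.1 CPM in the first 2 classes (log2 0.84, SE 0.24, adjusted p = 0.0115), a call lost without the Ccr7-0 class of library 1 or either intermediate class (log2 0.61 to 1.10). Dhx58, which encodes LGP2, did not pass from Ccr7-0 to late (log2 -0.66, SE 0.37, adjusted p = 0.143).

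Ifit1, Slfn1, Oasl2, Rtp4 and Ifi204 also passed as higher in the intermediate class, from 12, 12, 15, 8 and 50 UMIs there. Slfn1 was at 0.435 and 0.572 CPM in Ccr7-0 and 4.28 and 2.33 in intermediate cDC1, Oasl2 at 1.02 and 1.18 against 6.12 and 2.33, and Ifi204, of the family of DNA sensors with IFI16, at 6.33 and 8.10 against 12.8 and 13.5. The classes did not overlap in these 3 genes. Ifit1, which binds viral RNA caps, was at 0.566 and 0.731 CPM against 2.45 and 3.73 (log2 2.27, SE 0.75, adjusted p = 0.0278). That call was lost without the Ccr7-0 class of library 1 or either intermediate class (log2 1.68 to 2.77), as were those of Rtp4 (1.85 to 2.40) and Ifi204 (0.69 to 1.14). The calls of Slfn1 (2.03 to 3.26) and Oasl2 (0.96 to 2.65) were lost without the intermediate class of library 1. Rtp4 was at 0.435 and 0.524 CPM against 2.45 and 1.87. In cells thinned to 3000 UMIs Rtp4 had no UMI in the intermediate class, so no difference could be read there.

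Isg20, a 3′-to-5′ exonuclease acting on single-stranded RNA, was highest in the intermediate of the 3 cDC1 classes, as were the summed erythroid markers. It was at 12.4 and 13.4 CPM in Ccr7-0, 18.96 and 23.3 in intermediate and 2.78 and 2.33 in late cDC1, and at 345 and 358 in erythroid cells. The 8 erythroid markers summed to 298 and 378 CPM in Ccr7-0 cDC1, to 1029 and 503 in intermediate cDC1, none at 0, and to 58.4 and 50.1 in late cDC1, where Klf1, Epor and Rhag were among those at 0. Within the intermediate class the marker sum was higher in library 1 and Isg20 in library 2. The cause of the Isg20 change was not tested. Isg20 passed as higher in the intermediate class (log2 0.76, SE 0.19, adjusted p = 0.00306). Without cells that held genes of other cell types its difference was log2 0.36 (adjusted p = 0.311), and with stricter antibody gates -0.10 (adjusted p = 0.902). It passed as lower in late than in Ccr7-0 cDC1 (log2 -2.20, SE 0.52, adjusted p = 8.91e-04), where the late class held 4 UMIs, and this call was lost with stricter gates. The 8 T cell markers also stood at 82.6 and 188 CPM in the intermediate class against 8.94 and 9.74 in Ccr7-0 cDC1, and the 7 B cell markers at 75.2 and 104 against 19.8 and 14.2. With the cells that held such genes left out, 16 members passed in place of 18 at this step.

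Among the members that fell, Trim30a, an E3 ligase that restrains NF-kB signalling, was called at every setting from Ccr7-0 to late. It went from 148 and 154 CPM to 111 and 97.5 to 43.1 and 72.2, with no overlap between classes. The difference from Ccr7-0 to late was log2 -1.22, SE 0.19, adjusted p = 3.55e-06. Irf7, the transcription factor that amplifies interferon production, was at 70.3 and 82.5 CPM, then 95.4 and 64.4, then 38.96 and 39.6, and fell from Ccr7-0 to late (log2 -0.82, SE 0.26, adjusted p = 0.00964), not without the late class of library 2 (log2 -0.97 to -0.68) nor with DESeq2. A few such cells also held much of the intermediate Irf7: after thinning to 3000 UMIs, 4 of 166 intermediate cells of library 1 accounted for 52.2% of Irf7 UMIs, and 2 of 215 in library 2 for 43.9%. In late cDC1 of library 1 a single cell held 39.3% of them, unthinned. Irf9, the DNA-binding partner of STAT2, was at 54.5 and 55.4 CPM, then 36.7 and 42.5, then 23.7 and 32.6. It fell from Ccr7-0 to late (log2 -0.80, SE 0.24, adjusted p = 0.00594), not without the late class of library 1 (log2 -1.11 to -0.61).

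Slfn5, another schlafen protein, differed between the libraries in the late class. It was at 53.96 and 63.3 CPM in Ccr7-0, 70.3 and 61.1 in intermediate and 11.1 and 40.8 in late cDC1. It fell from Ccr7-0 to late (log2 -0.97, SE 0.25, adjusted p = 0.00216), but without the late class of library 1 the difference was log2 -0.44 and did not pass. Ifi27l2a, a small mitochondrial protein, was at 55.2 and 65.2 CPM, then 68.5 and 74.2, then 32.004 and 29.1. It fell from intermediate to late (log2 -1.13, SE 0.30, adjusted p = 0.00499), not without the late class of library 2 (log2 -1.21 to -1.05), and its fall from Ccr7-0 to late (log2 -0.84, SE 0.28, adjusted p = 0.0149) was lost in 3 of the 4 left-out sums (log2 -1.05 to -0.64). Ifi35, an interferon-induced leucine zipper protein, was at 125 and 136 CPM in Ccr7-0 and 85.6 and 105 in intermediate cDC1 (log2 -0.41, SE 0.12, adjusted p = 0.0106), a call lost without the Ccr7-0 class of library 2 or the intermediate class of library 1 (log2 -0.52 to -0.33).

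For several members the late cDC1 were too few to place the level. Ifit3, Ifit3b, Oas1a and Rtp4 had no UMI in late cDC1, and 3 UMIs there would be 1.90 CPM, above their levels of 0.578, 0.0826, 0.670 and 0.487 CPM in Ccr7-0 cDC1. A fall was therefore not detectable at this depth. Ifit3 and Ifit3b are near-identical neighbouring copies, and Oas1a has close relatives, so reads shared between copies make these values uncertain. Ifit3b and Cmpk2, which makes the nucleotide that viperin uses, did not pass the filter and were not tested. Bst2, which encodes tetherin, was at 126 and 128 CPM in Ccr7-0 and 113 and 100.2 in late cDC1 (log2 -0.11, SE 0.14, adjusted p = 0.533).

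Ccr7-0 cDC2 carried more of the list than Ccr7-0 cDC1. Of the 33 members tested, 26 were higher in Ccr7-0 cDC2 than in Ccr7-0 cDC1 and 3 lower, where 23.3% of all genes were higher and 23.9% lower (47.2% in all). The median difference of the members was log2 1.21, against -0.03 over all genes. Of the 29 calls, 22 held under every setting. None of the 35 genes enters the rule of a class. The 8 markers of mature dendritic cells summed to 271 and 260 CPM in Ccr7-0 cDC2 and to 42.2 and 48.5 in Ccr7-0 cDC1. The gate of no Ccr7 UMI did not correct for depth, and cDC2 were the shallower cells. The classes are therefore not matched for these markers, whose part in the members' differences was not tested. Markers of other phagocytes differed between these classes. The 7 monocyte markers summed to 366 and 414 CPM in Ccr7-0 cDC2 and to 168 and 188 in Ccr7-0 cDC1. The 8 markers of red pulp macrophages summed to 139 and 146 against 38.5 and 44.99 CPM. No setting left out cells with those markers, and their part in the members' differences was not tested. RNA of neutrophils moved with this comparison: the 7 neutrophil markers summed to 2145 and 1717 CPM in Ccr7-0 cDC2, none at 0, and to 138 and 131 in Ccr7-0 cDC1. In Ccr7-0 cDC2 97.5% and 97.9% of those UMIs lay in 4 and 5 cells. With cells holding at least 5 such UMIs from at least 2 of these genes left out, a setting chosen after seeing the data, the markers fell to 54.0 and 36.6 CPM and 29 members were called.

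The widest differences were in genes almost without UMIs in cDC1. Rtp4, a chaperone of receptors, was at 0.435 and 0.524 CPM in Ccr7-0 cDC1 and 64.7 and 45.3 in Ccr7-0 cDC2 (log2 6.62, SE 0.18, adjusted p = 2.95e-21). Ifit3, a partner of Ifit1 in binding viral RNA, was at 0.457 and 0.667 against 32.7 and 24.97 CPM (log2 5.45, SE 0.25, adjusted p = 7.21e-16), and Ifit1 at 0.566 and 0.731 against 24.04 and 17.1 (log2 4.77, SE 0.31, adjusted p = 1.69e-13). Libraries agreed on the order in each of the 3 genes, and the classes did not overlap. Oas1a, which makes the oligoadenylate that activates RNase L, was at 0.696 and 0.651 against 16.9 and 20.5 CPM (log2 4.65, SE 0.27, adjusted p = 3.61e-14). Oasl2 was at 1.02 and 1.18 against 31.999 and 36.3 CPM (log2 4.82, SE 0.18, adjusted p = 1.15e-18), and Ddx58 at 0.870 and 0.842 against 34.5 and 27.6 (log2 5.02, SE 0.17, adjusted p = 9.89e-20). Ifit3b, not tested, was at 0.0435 and 0.111 against 6.80 and 6.05 CPM.

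Isg15 and Ifi27l2a, which had more UMIs in cDC1, differed less than these genes. Isg15 was at 42.3 and 46.5 CPM in Ccr7-0 cDC1 and 301 and 267 in Ccr7-0 cDC2 (log2 2.55, SE 0.16, adjusted p = 8.16e-14), and Ifi27l2a at 55.2 and 65.2 against 593 and 609 CPM (log2 3.20, SE 0.15, adjusted p = 9.57e-17). Usp18 (log2 1.51), Herc6 (log2 1.21) and Parp14 (log2 1.03) were higher in cDC2 as well. The transcription factors differed little, with Irf7 at log2 0.40, Stat2 at log2 0.34 and Irf9 not called (log2 0.06, SE 0.12, adjusted p = 0.701). The 3 members lower in cDC2 were Mx1 (14.1 and 15.04 CPM, log2 -1.11, SE 0.14, adjusted p = 1.10e-07), Trim30a (97.2 and 94.9 CPM, log2 -0.77, SE 0.12, adjusted p = 4.48e-06) and Ifi35 (111 and 123 CPM, log2 -0.28, SE 0.10, adjusted p = 0.0243).

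Other cDC2-high members differed to varying degrees. Rsad2, which encodes the antiviral enzyme viperin, was at 1.96 and 2.64 CPM in Ccr7-0 cDC1 and 31.8 and 23.9 in Ccr7-0 cDC2 (log2 3.43), and the schlafen gene Slfn1 at 0.435 and 0.572 against 4.14 and 4.34 (log2 2.90). Slfn8 (log2 1.94), Isg20 (log2 1.91), Slfn2 (log2 1.17) and Zbp1 (log2 0.92) were also higher in cDC2. Ifit2, another gene of the IFIT family, was at 4.003 and 5.21 CPM in Ccr7-0 cDC1 and 18.4 and 14.7 in Ccr7-0 cDC2 (log2 1.71). Ifih1 stood at 9.68 and 11.7 against 37.8 and 40.2 CPM (log2 1.74), Dhx58 at 18.8 and 20.8 against 27.4 and 31.5, and Xaf1, a partner of the apoptosis inhibitor XIAP, at 7.88 and 7.15 against 40.8 and 35.05 (log2 2.21). Ifi204 was at 6.33 and 8.10 against 14.6 and 13.96 CPM and Slfn5 at 53.96 and 63.3 against 84.4 and 79.2. In each gene of this group both cDC2 values lay above both cDC1 values.

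**Figure D2:**
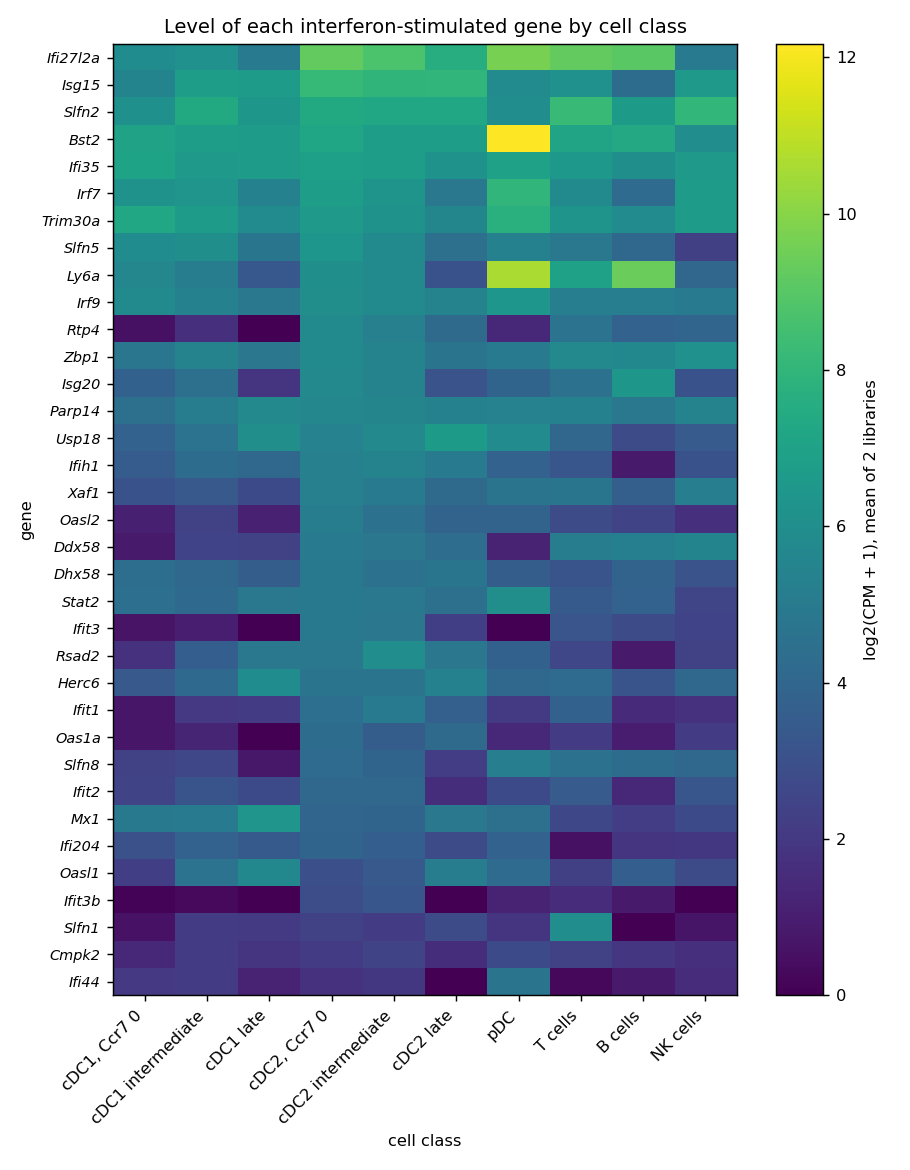
Mean level over 2 libraries of each of the 35 members (rows, ordered by level in Ccr7-0 cDC2) in 10 cell classes (columns), as log2(CPM + 1) by colour; counts are not scaled by gene length, so colours compare classes within a row. Rtp4, Ifit3, Oas1a and Oasl2 are dark in cDC1 and lighter in cDC2, Bst2 and Ly6a are brightest in pDC, and Slfn1 is brightest in T cells.

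In cDC2, from Ccr7-0 to late, 2 members rose (Oasl1 and Usp18) and 7 fell (Ifit3, Isg20, Irf7, Ifi27l2a, Rtp4, Trim30a and Slfn5), where 9.47% of all genes rose and 11.3% fell (20.7% in all). The median was log2 -0.66 against -0.26 over all genes. The difference between lineages was tested as an interaction. Of 33 members 6 passed and 27 did not. All 6 had the more positive change in cDC1, where 5.64% of all genes passed in that direction and 1.54% in the other (7.18% in all). Late cDC2 numbered 62 cells in each library, which limits these values. The Ccr7-0 classes from which the changes were taken also differed in mature dendritic cell markers, as given above. The same neutrophil markers stood at 76.7 and 44.3 CPM in late cDC2, and 6 members passed the interaction when the cells holding them were left out.

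Herc6 was at 23.5 and 25.4 CPM in Ccr7-0 and 47.5 and 32.2 in late cDC2, and its change in cDC1 exceeded that in cDC2 (log2 1.99, SE 0.35, adjusted p = 2.63e-04). Rsad2 was at 31.8 and 23.9 CPM in Ccr7-0 and 7.30 and 48.3 in late cDC2, whose libraries lay on either side of the Ccr7-0 values (log2 3.72, SE 0.68, adjusted p = 4.62e-04). These 2 differences passed under every setting, although 1 cell held 41.7% of the 12 Rsad2 UMIs of late cDC2 in library 2. Isg15 (log2 1.51), Usp18 (log2 1.14), Ddx58 (log2 3.15) and Parp14 (log2 1.62) passed too. The call of Parp14 was lost without the late cDC2 of either library, and that of Usp18 also without the Ccr7-0 cDC2 of library 1. Without the late cDC2 of library 1 the calls of Isg15, Usp18, Ddx58 and Parp14 were lost and 2 members passed in place of 6. Without the late cDC1 of library 2 those of Isg15, Usp18 and Ddx58 were lost and 3 passed. A single cell held 45.9% of the 85 Isg15 UMIs of late cDC2 in library 2. Oasl1 rose in both lineages (log2 3.85 in cDC1 and log2 2.29 in cDC2), and the difference did not pass (log2 1.56, SE 0.53, adjusted p = 0.0797).

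**Figure D3:**
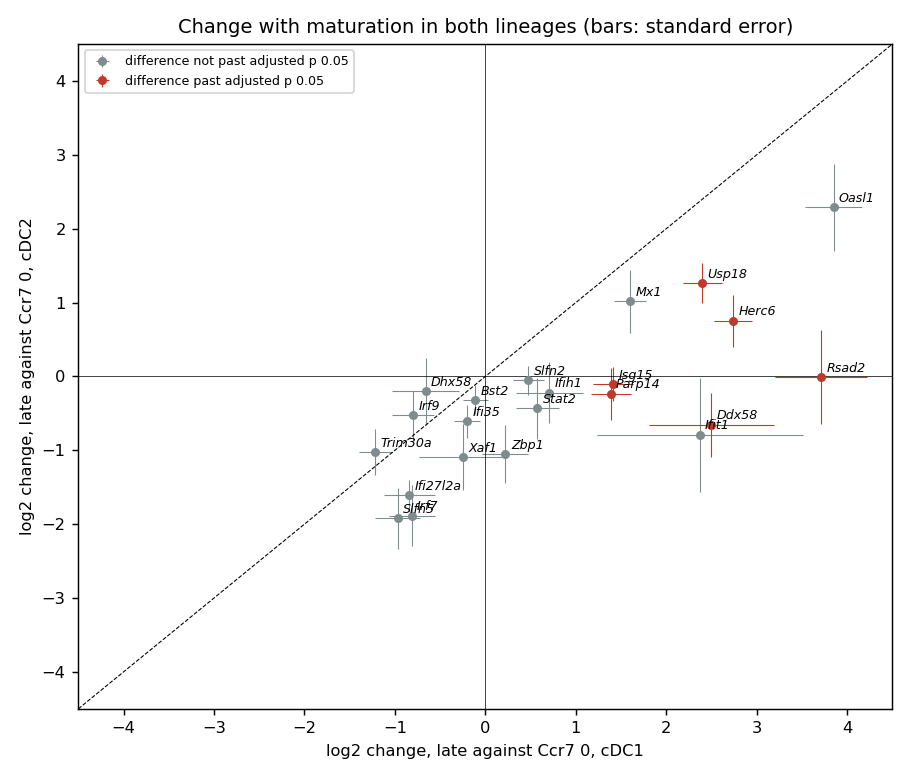
Log2 change from Ccr7-0 to late in cDC1 (horizontal) and in cDC2 (vertical), with standard errors, for the 22 tested members with at least 5 UMIs in each of the 4 classes; the dashed line marks equal change. The 6 red points (Isg15, Rsad2, Usp18, Ddx58, Herc6 and Parp14) passed the test of the difference and lie below the line.

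The pDC differed from Ccr7-0 cDC1 in a narrower set, with 11 members higher and 2 lower (13.8% and 16.7% of all genes, 30.5% in all). Bst2, whose product tetherin holds virus particles at the cell surface and marks mouse pDC, was at 4675 and 4536 CPM in pDC and 126 and 128 in Ccr7-0 cDC1 (log2 4.78, SE 0.11, adjusted p = 3.68e-23). Ly6a, which encodes the surface protein Sca-1, was at 1498 and 1693 against 33.5 and 63.97 CPM (log2 4.70, SE 0.28, adjusted p = 8.35e-14). In both genes pDC lay above every other class in each library. Irf7 was at 229 and 292 CPM in pDC (log2 1.36, SE 0.20, adjusted p = 3.26e-06), and Ifi27l2a at 909.5 and 741 (log2 3.37, SE 0.16, adjusted p = 9.80e-16). Usp18 (48.4 and 67.3 CPM, log2 1.69) and Slfn8 (30.6 and 41.7 CPM, log2 2.63), together with these 4, were called under every setting. Stat2 (71.3 and 57.7 CPM, log2 1.22) was higher in pDC, not without the pDC of library 1 (log2 1.06 to 1.38 over the left-out sums). Irf9 (99.4 and 64.1 CPM, log2 0.20, SE 0.23, adjusted p = 0.570) and Trim30a (206 and 212 CPM, log2 0.07, SE 0.17, adjusted p = 0.792) did not pass. Ifi44 rose on 16 UMIs, with 10.2 and 38.5 CPM in the 2 libraries (log2 2.49, SE 0.54, adjusted p = 5.93e-04), a call lost without the pDC of library 2 (log2 1.40). Without the pDC of either library 8 members passed in place of 13. The classical targets Ifit3 (no UMI), Ifit1 (2), Rtp4 (1) and Oas1a (1) had at most 2 UMIs in all pDC. With so few pDC, 3 UMIs would be 4.26 CPM, above the levels of these 4 genes in Ccr7-0 cDC1. Their counts therefore do not place pDC below cDC1.

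In T cells 18 members were higher than in Ccr7-0 cDC1 and 10 lower (29.6% and 31.1% of all genes, 60.7% in all). The neutrophil markers summed to 1569 CPM in T cells of library 1, where 1 cell held 96.9% of them, and to 28.3 in library 2. With cells holding neutrophil genes left out 28 members were called. Slfn1 was at 53.1 and 69.9 CPM in T cells and at most 8.05 in any other class and library (log2 6.67, SE 0.25, adjusted p = 1.72e-18), and Slfn2 at 313 and 296 (log2 1.97, SE 0.12, adjusted p = 1.34e-14). Both schlafen genes did not overlap between T cells and cDC1. Rtp4 (23.8 and 24.6 CPM, log2 5.36) and Ddx58 (37.2 and 31.2 CPM, log2 5.09) were higher in T cells as well, and Mx1 (4.46 and 6.14 CPM, log2 -2.66) and Ifi204 (log2 -4.24) lower.

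In B cells 11 members were higher and 6 lower (16.5% and 18.9% of all genes, 35.4% in all). Isg20 was at 75.3 and 94.6 CPM (log2 2.90, SE 0.20, adjusted p = 1.25e-12), above the other 9 classes compared but below erythroid cells (345 and 358 CPM), and Ly6a at 725 and 627 (log2 4.08, SE 0.28, adjusted p = 1.50e-12). Irf7 was lower (23.4 and 12.99 CPM, log2 -1.85, SE 0.36, adjusted p = 1.38e-04). Markers of other types moved with the B cell class. The 5 plasma cell markers summed to 22990 and 19172 CPM, none at 0, against 129 and 96.9 in Ccr7-0 cDC1. The 8 pDC markers summed to 2294 and 2188, with Siglech and Klk1 at 0, and the 8 erythroid markers to 41.8 and 2232. Without cells holding genes of other cell types 17 members were called. In NK cells 10 were higher and 12 lower (23.5% and 27.8% of all genes, 51.4% in all). Ddx58 was at 42.3 and 47.02 CPM (log2 5.37, SE 0.26, adjusted p = 2.69e-16), Zbp1 at 70.96 and 68.02 (log2 1.08, SE 0.17, adjusted p = 5.89e-06), and Slfn5 at 3.73 and 4.20 (log2 -4.19, SE 0.36, adjusted p = 7.05e-11). B cells lay close in Ddx58 (30.1 and 44.5 CPM). Zbp1 was highest in NK cells in both libraries, with Ccr7-0 cDC2 at 45.3 and 61.1 CPM.

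Over the 10 classes, mean levels were highest in Ccr7-0 cDC2 for 10 members, in pDC for 10, in late cDC1 for 4 (Mx1, Oasl1, Herc6 and Parp14), in intermediate cDC2 for 4, in T cells for 2, in NK cells for 2, and in B cells, late cDC2 and Ccr7-0 cDC1 for 1 each. Neighbours in that order often overlapped: in 15 of the 35 members the highest class did not exceed the second in both libraries. The same order was not computed for all genes, so these counts are not read as a property of the list. By mean, Usp18 was highest in late cDC2 (76.7 and 117 CPM) and Rsad2 in intermediate cDC2 (81.8 and 39.6 CPM). Each lay above the class ranked second by mean in both libraries. In library 2, however, Rsad2 was higher in late than in intermediate cDC2, as its values given above show. For Ifit1 the highest class, intermediate cDC2 (45.4 and 16.002 CPM), did not exceed Ccr7-0 cDC2 in both libraries. A single cell held 62.1% of the 66 Ifit1 UMIs of that class in library 1 and 42.9% of its 119 Rsad2 UMIs.

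Antibodies in the panel reached the products of 2 members. CD317, the protein of Bst2, stood at 851 and 874 UMIs per 10000 antibody UMIs in pDC, and 10.2 and 11.7 in Ccr7-0 cDC1 (log2 6.004, SE 0.26, adjusted p = 5.52e-12, edgeR over 172 antibodies). It fell over the cDC1 steps to 7.25 and 8.25 in the intermediate and 4.74 and 5.78 in the late class (log2 -1.10, SE 0.24, adjusted p = 0.00132 from Ccr7-0 to late). In late cDC1 the highest of the 10 isotype control features, IgG1_Rat_l, was at 3.88 and 1.81, below CD317 in both libraries. The same control was at 6.75 in Ccr7-0 cDC1 of library 2. Bst2 RNA did not pass in that comparison. Of all antibodies, 24.4% were called from Ccr7-0 to intermediate cDC1, 18.6% from intermediate to late, 40.7% from Ccr7-0 to late, and 6.4% in the difference between lineages. Against Ccr7-0 cDC1 the share called was 34.9% in Ccr7-0 cDC2, 41.9% in pDC, 59.3% in T cells, 45.3% in B cells and 49.4% in NK cells, and late against Ccr7-0 cDC2 gave 29.1%.

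The antibody to Ly6A and Ly6E, of which Ly6A is the protein of Ly6a, stood at 57.6 and 109 per 10000 in Ccr7-0 cDC1 and at 26.7 and 52.3 in late cDC1 (log2 -1.13, SE 0.40, adjusted p = 0.0340). This call was lost without the replicate block (adjusted p = 0.117) and on total antibody UMIs (adjusted p = 0.0692). Ly6a RNA fell likewise, from 33.5 and 63.97 CPM to 4.17 and 13.98 (log2 -2.22, SE 0.68, adjusted p = 0.00811), on 15 UMIs in late cDC1, and this call was lost without the late class of either library (log2 -3.03 to -1.95). Surface levels were 1324 and 1454 in pDC, 382 and 353 in B cells and 279 and 254 in T cells, each above cDC1 (log2 3.87, 2.10 and 1.83).

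The 2 libraries differed in this gene by cell class. Ly6a RNA was 1.91-fold higher in library 2 than in library 1 in Ccr7-0 cDC1, 3.03-fold in Ccr7-0 cDC2 and 3.97-fold in intermediate cDC2, but 0.876-fold in T cells and 0.866-fold in B cells. The antibody followed with 67.5 and 229 per 10000 in Ccr7-0 cDC2 and 31.2 and 73.8 in NK cells. With 1 library of each kind no test of this difference is possible. In Ccr7-0 cDC1, 2 of the 34 members compared (Ly6a and Zbp1) differed by more than 1.5 times between libraries.

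**Figure D4:**
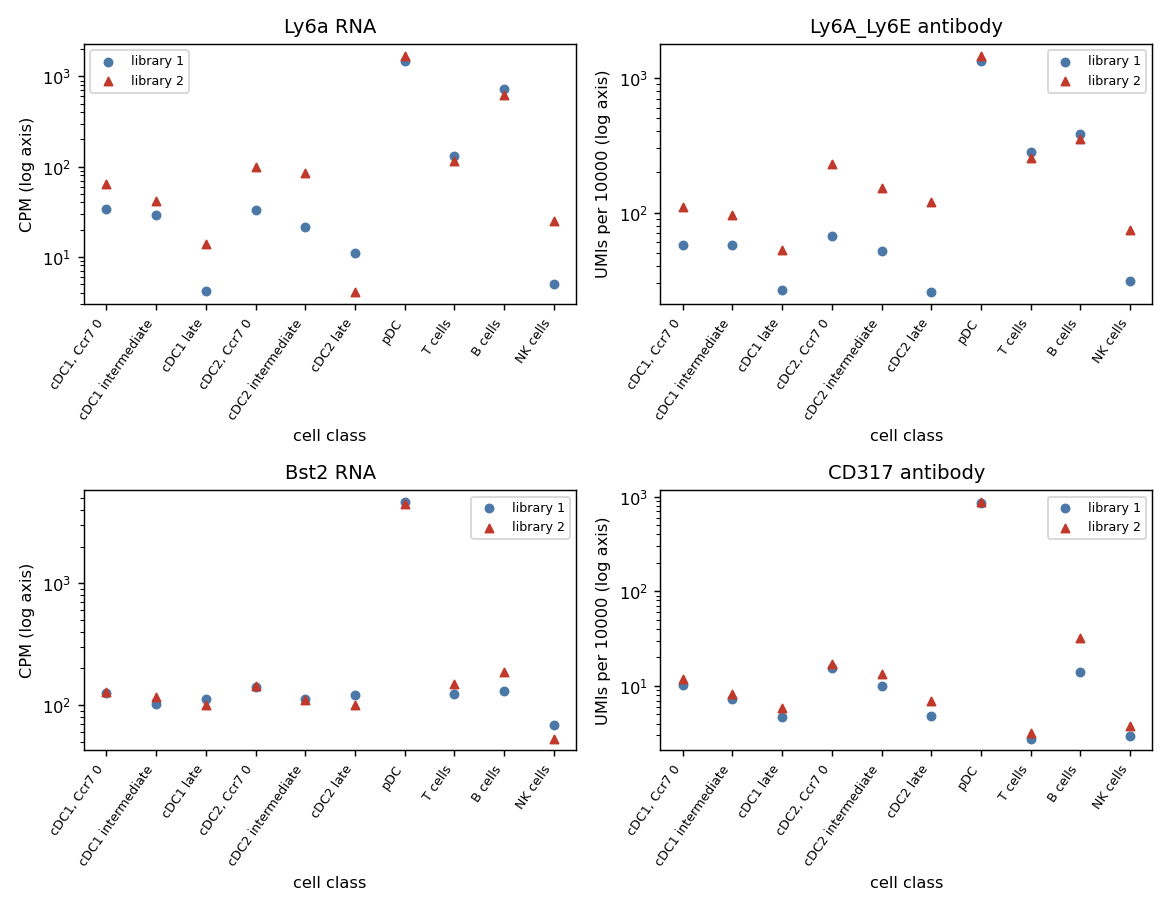
RNA in CPM (left) and antibody UMIs per 10000 antibody UMIs (right) of Ly6a with its antibody (top) and Bst2 with CD317 (bottom) in 10 classes, on log axes, with 1 point per library. Ly6a and its antibody are higher in library 2 in cDC1 and Ccr7-0 cDC2 but not in T and B cells, and Bst2 and CD317 peak in pDC.

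Co-expression was read on 16 core members, chosen as canonical targets and taken to have low background. They were Ifit1, Ifit2, Ifit3, Ifit3b, Isg15, Rsad2, Cmpk2, Mx1, Oas1a, Oasl1, Oasl2, Irf7, Usp18, Ifi44, Zbp1 and Rtp4. In erythroid cells Cmpk2, Oasl1 and Isg15 lay above their Ccr7-0 cDC1 levels, so low background did not hold for these genes. Cells were thinned to 3000 UMIs and shallower cells left out. At least 3 core members were detected in 99 of 4611 Ccr7-0 cDC1 of library 1 (2.15%, exact 95% interval 1.75 to 2.61%) and in 161 of 6938 of library 2 (2.32%, 1.98 to 2.70%). The share was 4.82% and 5.58% in intermediate and 6% and 4.42% in late cDC1, from 8, 12, 6 and 5 cells, whose intervals reach down to 2.10%, 2.92%, 2.23% and 1.45%. In Ccr7-0 cDC2 it was 19.6% (17.3 to 22.1%) and 17.6% (15.5 to 19.9%). Erythroid cells, taken as background, were at 6.86% and 6.59%, so the cDC1 shares are not read as above background. Those cells themselves held 30.9 and 36.9 CPM of Cmpk2, 23.5 and 19.96 of Oasl1 and 66.96 and 58.7 of Isg15. Their median depth was 20446.5 and 17502 UMIs before thinning.

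In the other classes the share was 13.0% and 13.7% in intermediate cDC2, 4.26% and 17.9% in late cDC2 (2 and 7 cells), 7.04% and 7.94% in pDC, 4.98% and 6.08% in T cells, 5.48% and 4.67% in NK cells, and 1.85% and 0% in B cells, where 0 of 43 cells allows up to 6.98%. Without thinning it was 10.4% and 12.9% in Ccr7-0 cDC1 and 27.2% and 25.0% in Ccr7-0 cDC2, the cDC1 being the deeper cells. The summed level of the core list was 190 and 227 CPM in Ccr7-0 cDC1, 393 and 303 in intermediate, 380 and 434 in late cDC1, and 744 and 701 in Ccr7-0 cDC2.

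**Figure D5:**
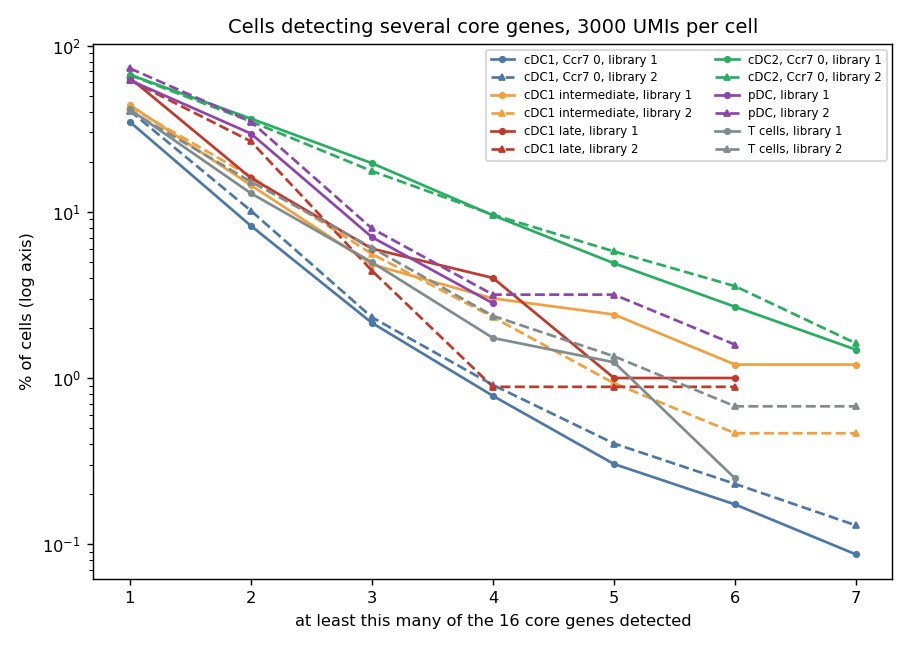
Percent of cells (log axis) with at least 1 to 7 of the 16 core members detected, in cells thinned to 3000 UMIs, for 6 classes (colours) and 2 libraries (solid and dashed). At 3 or more members the Ccr7-0 cDC2 curves stand at 19.6% and 17.6% and the Ccr7-0 cDC1 curves at 2.15% and 2.32%; a curve ends where no cell remained.

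A small set of cells carried many core members at once. At least 5 were detected in 14 and 28 Ccr7-0 cDC1 (0.304% and 0.404%), 53 and 68 Ccr7-0 cDC2 (4.90% and 5.78%), and 5 and 4 T cells (1.24% and 1.35%). In intermediate cDC1 they were 4 of 166 and 2 of 215 cells (2.41% and 0.930%), and in erythroid cells 1 of 102 (0.980%) and 0 of 91, which allows a share of up to 3.30%. The Ccr7-0 cDC1 shares are therefore not read as above background. The few Ccr7-0 cDC1 held 34.5% and 51.0% of the class's Rsad2 UMIs, 11.8% and 14.1% of its Isg15 and 2.47% and 4.37% of its Mx1 UMIs. Among members outside the core list they held 15.8% and 11.1% of the Ifi204, 6.96% and 4.45% of the Isg20 and 5.93% and 6.85% of the Slfn5 UMIs, but 1.20% and 1.24% of the Trim30a and 0.983% and 1.02% of the Bst2 UMIs. In Ccr7-0 cDC2 the cells with at least 5 held 46.3% and 48.4% of Rsad2, 47.2% and 56.7% of Ifit3 and 22.0% and 25.9% of Isg15 UMIs. The core list chose these cells, so the shares of its genes are a description.

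In Ccr7-0 cDC1 and Ccr7-0 cDC2, most pairs of members were detected together more often than the product of their single shares. Of 124 pairs with at least 20 expected cells in Ccr7-0 cDC1, 102 lay above 1 in both libraries, with median ratios of 1.15 and 1.17. Isg15 and Zbp1 had ratios of 2.58 and 1.76, Isg15 and Irf7 1.94 and 1.64, and Usp18 and Slfn5 1.77 and 2.02. In Ccr7-0 cDC2 120 of 138 pairs lay above 1 in both, with medians of 1.19 and 1.21, and Ifit1 and Isg15 had 1.95 and 2.14. In T cells 5 of 12 pairs lay above 1 in both libraries, and in pDC 0 of 7. Cells of a class share library and depth, and no test was made of these ratios. They were not computed for pairs of other genes, so the counts are not read as a property of the members.

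The genes that make, receive and regulate the signal were read from a list of 50, of which 36 were tested. Of these 12 rose and 5 fell from Ccr7-0 to intermediate cDC1, where 12.6% of all genes rose and 10.9% fell. From intermediate to late 12 rose and 4 fell (15.2% and 16.4% of all genes), and from Ccr7-0 to late 15 rose and 7 fell (22% and 26.9% of all genes). Among the ligands, the interferon alpha genes Ifna1, Ifna2, Ifna4, Ifna5 and Ifna9 had no UMI in any class, and Ifnb1 gave 3 UMIs in intermediate cDC1 of library 1 and none in the late class. The receptor gene Ifnar1 was at 42.6 and 44.2 CPM in Ccr7-0 and 70.97 and 66.4 in late cDC1 (log2 0.80, SE 0.17, adjusted p = 2.92e-04), while Ifnar2 did not pass (log2 0.17, SE 0.18, adjusted p = 0.473). The interferon gamma receptor gene Ifngr1 fell from 517 and 513 to 283 and 319 to 84.9 and 139 CPM (log2 -2.04, SE 0.14, adjusted p = 1.38e-12 from Ccr7-0 to late).

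Irf1, a transcription factor which interferon gamma and NF-kB also induce, changed with each step. It went from 34.5 and 46.2 CPM to 104 and 92.4 to 468 and 573, with no overlap between classes, and rose by log2 3.84, SE 0.13, adjusted p = 2.51e-19 from Ccr7-0 to late. Of the 9 negative regulators tested 6 rose and 1 fell between those classes, where 22% of all genes rose and 26.9% fell. They included Socs1, an inhibitor of JAK kinases (7.79 and 8.63 to 34.8 and 36.1 CPM, log2 2.25, SE 0.28, adjusted p = 1.48e-07), and Nlrc5, an activator of MHC class I genes that also restrains innate signalling (17.4 and 23.3 to 196 and 155 CPM, log2 3.24, SE 0.18, adjusted p = 4.34e-15). Among 12 inducers and sensors tested 1 rose (Tbk1, log2 1.42) and 4 fell (Tlr3, Unc93b1, Myd88 and Cgas), a share of falls near that of all genes. Tlr3, the endosomal sensor of double-stranded RNA that marks cDC1, fell from 141 and 152 to 15.3 and 40.8 CPM (log2 -2.19, SE 0.22, adjusted p = 2.84e-09). Tlr7, the sensor of single-stranded RNA, was at 0.218 and 0.207 CPM in Ccr7-0 cDC1, 31.3 and 34.9 in Ccr7-0 cDC2 (log2 7.06, SE 0.28, adjusted p = 1.81e-17) and 112 and 99.4 in pDC (log2 8.46, SE 0.46, adjusted p = 5.08e-14).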

How the data were processed

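CITE-seq of spleen cells gave 31790 barcodes in a single deposited matrix that joins 2 libraries, told apart by barcode suffix. The authors deposited raw UMI counts per barcode for 55385 genes and 190 antibody features. The tools were Cell Ranger, STAR and Seurat 3.1.4 with build mm10, per the submitters' processing notes, and the software version was 3.1.0, per the file headers. No label ties a suffix to a replicate, so libraries are named by suffix.

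Kept cells had at least 500 genes, 1000 UMIs and under 10% mitochondrial UMIs, and were not called doublets by Scrublet (scanpy 1.11.5, run per library), which marked 546 barcodes (4.30%) and 1064 (6.24%). Of the rest, 28142 cells were kept. Antibody gates and marker genes, as given in the report, set the classes, and no clustering was used. UMIs were summed per class and library and fitted over all classes with edgeR 4.0.16 in R 4.3.3 (TMM, filterByExpr, quasi-likelihood, library as a block, Benjamini-Hochberg at 0.05). Libraries pair the classes because each class was taken from both, and library differences of 4 large classes correlated at 0.128 to 0.375 over 1669 genes. Alternatives were RLE or no size factors, no filter, DESeq2 1.42.0, no block, doublets kept, stricter cells, stricter gates, thinned cells, cells of other types left out and class sums left out. A comparison of late with Ccr7-0 cDC2, left-out class sums and left-out neutrophil-gene cells were added after seeing the data. On simulated data for late against Ccr7-0 cDC1 (8817 genes), 95.7% and 59.5% of genes raised by 2 and 1 on the log2 scale were recovered, 81.0% and 24.4% of those lowered, with 0.0578% false calls. The simulation gave every class the same gene profile, a single fixed spread and no library effect, so these rates may not hold for the real sums. Intervals are exact binomial and cover counting error only. Promoters came from RefSeq (GRCm38.p6), a table with no entry for Mx1, Usp18, Ifi27l2a, Dhx58, Zbp1, Rtp4, Ly6a, Parp14 and Ifi204.

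The members, core list and pathway list were chosen with earlier results of these data known. Values per library were given by rule for each member called in a cDC1 step or highest in a class, and other genes were named from the pathway list alone. UMIs are from 3′ ends and not scaled by length, so levels are compared between classes and not between genes. Some listed genes are not reported here.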

Additional observations from a re-analysis of the deposited data

Results flagged for a closer look

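The change from Ccr7-0 to late differed between cDC1 and cDC2, by an edgeR interaction test over all genes, in 6 members. The change in cDC1 minus that in cDC2 was log2 3.72 for Rsad2, 3.15 for Ddx58, 1.99 for Herc6, 1.62 for Parp14, 1.51 for Isg15 and 1.14 for Usp18. Only Rsad2 and Herc6 held in each of the settings tried, and late cDC2 numbered 62 cells in each library.

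Erythroid cells entered no comparison, yet 2 members stood there above their level in every class compared. Isg20, an RNA exonuclease, was at 351 CPM as the mean of 2 libraries, and Cmpk2, a nucleotide kinase, at 33.9 CPM. These were noted because the signal lies outside the classes the tests used.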

How the results depend on the processing

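The comparisons rest on 2 libraries and on late classes of at most 125 cells a library. Depth limits Ifit3, Ifit3b, Oas1a and Rtp4 in late cDC1. Over 10 other settings, 55 member calls in the cDC1 steps and the lineage test gave 474 values with the same call, 73 that no longer passed and 2 whose fitted value turned sign. Isg20 did so at the intermediate step with stricter gates (log2 -0.10), and the cause was not tested. Rtp4 did so there in thinned cells (-3.50), where the intermediate class had no Rtp4 UMI, so that value shows no direction.

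The replicate block changed few counts of members called: without the block they were 18, 13, 18, 28, 13, 27, 17 and 22 for the 3 cDC1 steps, cDC2, pDC, T, B and NK cells, 8 for late cDC2 and 6 for the lineage test. The 2 antibodies gave 9 calls without it. Members called at the intermediate step fell to 10 in thinned cells and 10 with stricter gates. Stricter gates gave 6 from intermediate to late, 8 from Ccr7-0 to late and 3 for the lineage test. B cells gave 11 with the stricter cell filter and 8 in thinned cells, and NK cells 13 with the stricter filter. With 1 class sum left out, the lone sum being assumed to vary like the others, counts ran from 9 to 17, 6 to 9 and 11 to 18 in the cDC1 steps, 8 to 13 in pDC and 2 to 8 in the lineage test.

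The median log2 of the members turned sign from Ccr7-0 to late with the stricter cell filter (-0.089) and in thinned cells (-0.041). In B cells it turned to 0.030 with RLE, 0.34 with no filter, 0.030 with DESeq2 and 0.13 with stricter gates. In NK cells it turned to -0.11 with no filter, -0.044 with the stricter cell filter, -0.14 in thinned cells and, with 1 library left out, ran from -0.11 to 0.0091.

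The mean share of cells with at least 3 core members moved with depth. Unthinned it was 11.7% in Ccr7-0, 16.7% in intermediate and 19.1% in late cDC1 and 26.1% in Ccr7-0 cDC2. At 2000 UMIs it was 1.22%, 2.52%, 3.98% and 12.4%, and at 5000 UMIs 4.77%, 7.57%, 9.08% and 22.7%. Stricter gates gave 5.81% in intermediate, 7.78% in late cDC1 and 20.5% in Ccr7-0 cDC2. Each class's share was lower with fewer UMIs kept.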
